A study of Rattus norvegicus with 24 samples.

Results

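S100b, Sox10, Mbp, Pmp22 and Ngfr are genes by which Schwann cells and peripheral nerve are commonly recognised, and their transcripts were followed in the abdominal mammary gland of rats given estradiol. They were chosen by name, and every probe set annotated to 1 of these genes alone was taken. This gave 8 of the 31042 probe sets tested, for 5 of 14217 genes: 3 probe sets for Mbp, 2 for Pmp22 and 1 each for S100b, Sox10 and Ngfr. Sprague-Dawley rats of both sexes carried osmotic pumps under the skin from weaning, on postnatal day 21, to postnatal day 33. The pumps released 17β-estradiol, the main ovarian estrogen, at 0, 0.1, 1 or 10 µg/kg/day, so the group at 0, given no estradiol, is the control of each sex. Each of the 8 groups of sex and dose holds 3 Affymetrix arrays of total RNA from whole gland pairs, and the groups differ in no other labelled factor. Nothing in the labels ties an array to an animal of its own, so a p-value here reflects variation among arrays, which may be partly technical.

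Schwann cells are the glia of peripheral nerve. They ensheathe axons, and some of them wrap larger axons in myelin. In the mammary gland, nerve fibres run with vessels and ducts and reach the nipple, so nerve transcripts come from a small part of the tissue. None of the 5 genes is made by Schwann cells alone. S100b is also made by fat cells, Sox10 by mammary epithelium, Pmp22 by fibroblasts and many epithelia, and Ngfr by myoepithelial and stromal cells, while the Mbp locus also gives golli transcripts in lymphoid cells.

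The deposited values are logarithms that look centred within each sex for many probe sets, and were taken as log2. For those, a value of 0 is close to the middle of that sex. This does not hold for every probe set. On Mbp 1387341_a_at the male group means ran 1.23, 0.56, 0.12 and -0.33 from 0 to 10 µg/kg/day. Neither an absolute level nor a difference in level between males and females can be read. A probe set was called higher or lower where the adjusted p, from limma over all 31042 probe sets with Benjamini-Hochberg adjustment, was under 0.05. In a whole gland, fewer cells of a type and less RNA per cell cannot be told apart.

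The 5 genes did not move as a group. In males at 10 µg/kg/day, S100b, 1 probe set of Mbp and 1 of Pmp22 fell and Sox10 rose, so 4 of 8 probe sets passed the threshold, where 17.5% of all probe sets did. The median of the 8 differences was -0.59. In males at 1 µg/kg/day, S100b fell and the other 7 did not pass, against 3.63% of all probe sets. In females at 10 µg/kg/day, 0 of 8 passed with limma, against 1.86% of all. There 3 of 8 had an unadjusted p under 0.05, where 13% of all probe sets did. At 0.1 µg/kg/day in males, at 0.1 in females and at 1 in females, 0 of 8 and 0% of all probe sets passed. In these comparisons 3, 2 and 0 of 8 had an unadjusted p under 0.05 (limma), beside 11.9%, 9.93% and 2.73% of all probe sets. The 3 comparisons within a sex share their 3 control arrays, so they are not independent of each other.

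**Figure D1:**
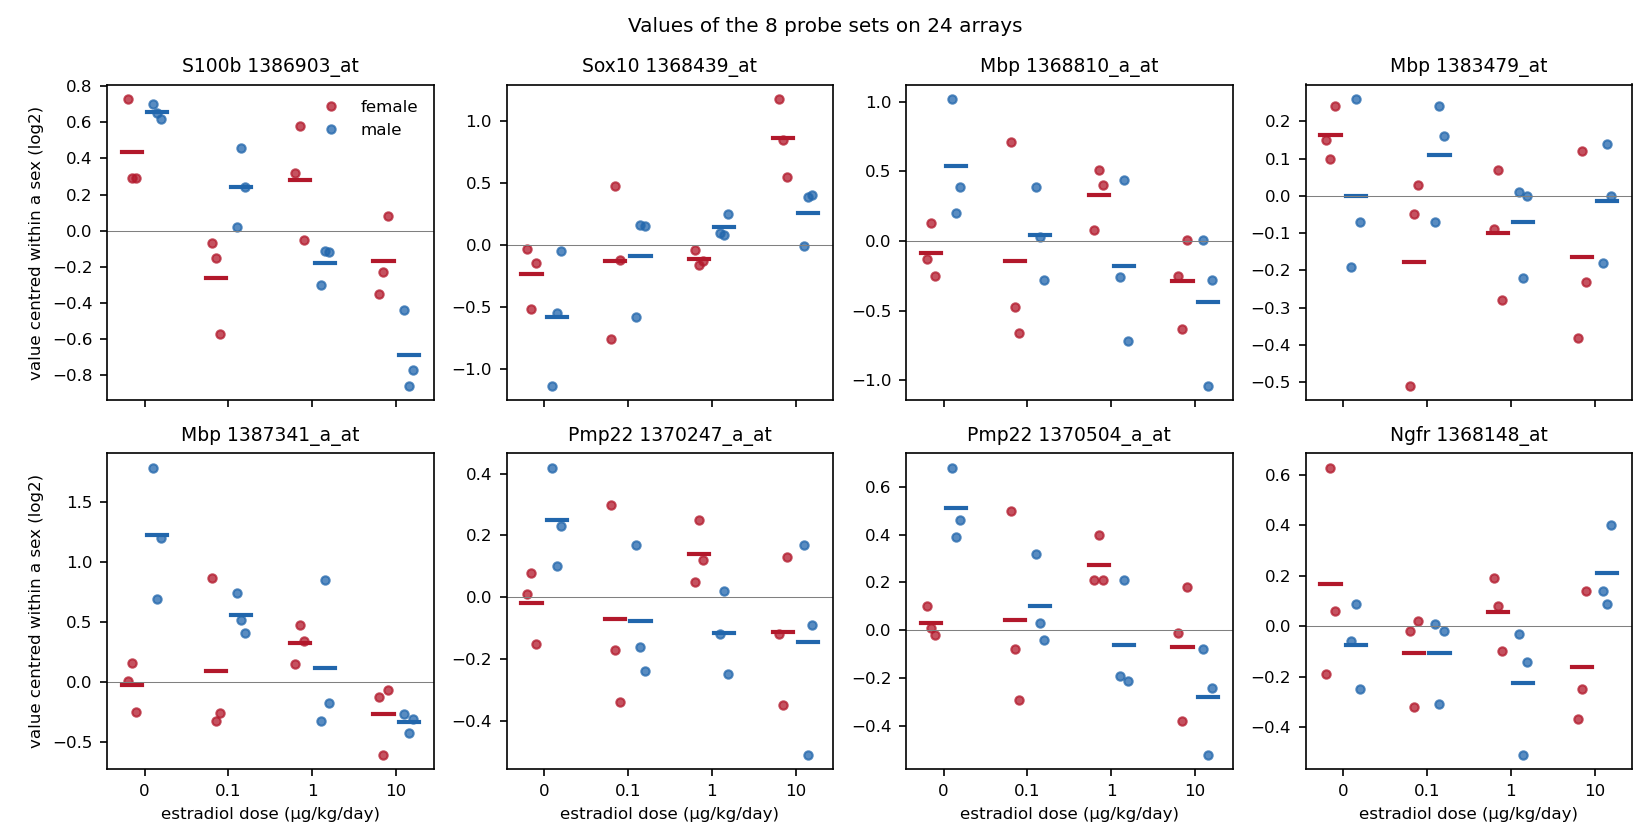
The log2 value of each of the 8 probe sets on every array is plotted by estradiol dose for females and males, centred within each sex, with points for arrays and bars for group means. S100b steps down over the 4 male groups from a mean of 0.66 to -0.69, while among the female groups Sox10 is highest at 10 µg/kg/day, at 0.86.

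S100b encodes a small calcium-binding protein found in the cytoplasm of glia and of fat cells. On its probe set 1386903_at, the male control arrays stood at 0.70, 0.65 and 0.62. The males at 0.1 µg/kg/day stood at 0.02, 0.46 and 0.24, and those at 1 µg/kg/day at -0.30, -0.11 and -0.12. The males at 10 µg/kg/day stood lowest, at -0.44, -0.86 and -0.77. None of these 4 male groups overlapped its neighbour in dose. The group means ran 0.66 ± 0.04, 0.24 ± 0.22, -0.18 ± 0.11 and -0.69 ± 0.22 (SD, n = 3) from 0 to 10 µg/kg/day.

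S100b fell in males by 0.84 ± 0.17 (log2 difference from 0 ± SE) at 1 µg/kg/day, a fold of 1.78 with an adjusted p of 0.0137 (limma). At 10 µg/kg/day it fell by 1.34 ± 0.17, a fold of 2.54 with an adjusted p of 5.15e-05 (limma, 95% interval -1.70 to -0.98). At 0.1 µg/kg/day the difference was -0.42, with an adjusted p of 0.381. Between neighbouring doses, the steps from 0.1 to 1 and from 1 to 10 did not pass (differences of -0.42 and -0.51, adjusted p of 1 and 0.277). From 0.1 to 10 µg/kg/day S100b was lower by a difference of -0.93 (adjusted p = 0.00397), which makes 1 of 8 probe sets called there against 4.45% of all. The call at 1 µg/kg/day rested on several single arrays. The adjusted p was 0.0811 without male control replicate 1, 0.0636 without replicate 7 at 1 µg/kg/day and 0.0537 without replicate 9. At 10 µg/kg/day the adjusted p stayed between 0.000102 and 0.000666 when each array of the compared groups was left out.

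In females S100b did not follow the order of the doses. The control arrays stood at 0.73, 0.29 and 0.29 and the arrays at 0.1 µg/kg/day at -0.07, -0.15 and -0.57. At 1 µg/kg/day they stood at 0.32, 0.58 and -0.05, and at 10 µg/kg/day at -0.35, -0.23 and 0.08. The groups at 0.1 and at 10 µg/kg/day lay below the control without overlap, and the group at 1 overlapped it. The differences from 0 were -0.70 ± 0.17 at 0.1, -0.15 ± 0.17 at 1 and -0.61 ± 0.17 at 10 µg/kg/day. Their adjusted p of 0.109, 1 and 0.0834 all missed the threshold, and the intervals at 0.1 (-1.06 to -0.34) and at 10 (-0.97 to -0.24) lay below 0.

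Genes of white fat cells differed in the same direction as S100b in each of these 6 comparisons. Over 33 probe sets of 21 fat cell genes, such as Adipoq, the hormone adiponectin, and Lipe, a lipase that frees stored fatty acids, the median difference from 0 in males was -0.41, -0.72 and -1.09 at 0.1, 1 and 10 µg/kg/day. The S100b differences at those doses were -0.42, -0.84 and -1.34. In females the fat cell medians were -0.72, -0.32 and -0.73, beside -0.70, -0.15 and -0.61 for S100b. Of the 33 probe sets, 28 fell in males at 10 (84.8%), 16 in males at 1 and 16 in females at 10 µg/kg/day (48.5% in each), and 0 rose in these comparisons. The mean of the list per array ran from 0.39 to 0.49 in male controls and from -0.79 to -0.60 in males at 10 µg/kg/day. With that mean as a covariate, the S100b difference was -0.38 at 10 µg/kg/day (adjusted p = 0.892) and -0.22 at 1 (adjusted p = 0.994). The covariate also left 9 of 31042 probe sets past the threshold in males at 10 µg/kg/day, so it removes most dose differences of any gene.

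The 3 genes whose values ran most like those of S100b over the 24 arrays were Abcd2, a peroxisomal transporter of fatty acids, Pnpla2, the first lipase of fat breakdown, and Mgll, the lipase that acts on monoglycerides. Each had a Pearson r of 0.97, given as a description because all genes share the dose groups and the centring. Pnpla2 is also in the fat cell list.

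The stretch before the start of S100b and of Pmp22 is shown, and both genes had a probe set that fell in males at 10 µg/kg/day. Mbp also had such a probe set. The reference holds 2 promoters for Mbp, and neither is shown. The sequences come from RefSeq on the build GRCr8, whose table holds a promoter for 3 of the 5 genes, S100b, Pmp22 and Mbp. The 250 bases before the start lie at chr20:12381082-12381331 on the minus strand for S100b and at chr10:48294682-48294931 on the plus strand for Pmp22. They are written 5′ to 3′ along the gene, and capitals mark AGGTCA, the half-site of the estrogen response element.
S100b: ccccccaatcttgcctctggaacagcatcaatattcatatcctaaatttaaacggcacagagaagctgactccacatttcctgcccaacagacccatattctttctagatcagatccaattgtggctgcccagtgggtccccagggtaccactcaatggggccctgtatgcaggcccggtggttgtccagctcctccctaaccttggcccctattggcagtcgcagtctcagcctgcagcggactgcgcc
Pmp22: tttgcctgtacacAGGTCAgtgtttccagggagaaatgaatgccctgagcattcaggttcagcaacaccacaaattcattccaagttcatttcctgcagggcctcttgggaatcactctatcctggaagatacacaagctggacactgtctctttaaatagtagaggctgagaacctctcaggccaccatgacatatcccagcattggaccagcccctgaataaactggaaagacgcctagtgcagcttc
The motifs, searched on both strands, were ACAAAG, a core bound by SOX factors, AGGTCA, and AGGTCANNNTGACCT, the full element, which contains AGGTCA. The S100b window held 0 matches to each. The Pmp22 window held 1 AGGTCA, whose first base lies 237 bases before the start on the plus strand, and 0 matches to ACAAAG or to the full element. Of 33469 promoter windows of this length, 16.3% held ACAAAG, 14.1% held AGGTCA and 0.00896% held the full element, so a match of the AGGTCA kind is common. A match describes letters only and is not a binding site.

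Sox10 encodes the transcription factor that neural crest cells and Schwann cells need for their identity, and it is also found in mammary epithelium. On probe set 1368439_at, the female arrays at 10 µg/kg/day stood at 1.18, 0.85 and 0.55. The female controls stood at -0.03, -0.52 and -0.15, the arrays at 0.1 µg/kg/day at -0.76, 0.48 and -0.12, and those at 1 µg/kg/day at -0.04, -0.16 and -0.13. Every array of the females at 10 µg/kg/day lay above all 9 other female arrays. The difference from 0 was 1.09 ± 0.28 at that dose, a fold of 2.13 with an interval of 0.51 to 1.68, and its adjusted p of 0.0502 narrowly missed the threshold. At 0.1 and 1 µg/kg/day the female differences were 0.10 and 0.12. Of the members, 2 of 8 did not overlap the control in females at 10 µg/kg/day, S100b and Sox10, where 19.9% of all probe sets did not overlap.

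In males, the Sox10 control arrays were spread widely, at -1.14, -0.55 and -0.05. The arrays at 0.1 µg/kg/day stood at -0.58, 0.16 and 0.15, those at 1 at 0.10, 0.08 and 0.25, and those at 10 at -0.01, 0.39 and 0.40. The groups at 1 and 10 µg/kg/day lay above the controls without overlap, while the group at 0.1 overlapped them. Sox10 was higher by 0.49 ± 0.28 at 0.1 (adjusted p = 0.466) and by 0.72 ± 0.28 at 1 µg/kg/day (adjusted p = 0.161). At 10 µg/kg/day it rose by 0.84 ± 0.28, a fold of 1.79 with an adjusted p of 0.0446 and an interval of 0.25 to 1.42.

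The male call of Sox10 lay close to the threshold. It was lost without male control replicate 1 (0.56, adjusted p = 0.251) or replicate 2 (0.86, adjusted p = 0.0734), and without replicate 11 (0.78, adjusted p = 0.14) or replicate 12 (0.77, adjusted p = 0.13) at 10 µg/kg/day. In females, leaving out replicate 12 at 10 µg/kg/day brought it past the threshold, with 1.25 and an adjusted p of 0.0479. The fit on the 2 compared groups alone gave an adjusted p of 0.083 in males.

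Sox10 had a positive difference in all 6 comparisons. The median difference was positive in 5 of the 6 for luminal epithelial markers and in all 6 for basal and myoepithelial markers. Over 18 probe sets of 17 luminal genes, the median difference from 0 was 0.72, 1.03 and 0.68 in males at 0.1, 1 and 10 µg/kg/day, and 0.04, -0.08 and 0.52 in females. In females at 10 µg/kg/day 3 of the 18 rose (16.7%, beside 1.86% of all probe sets), and in males at 10 µg/kg/day 4 rose (22.2%, beside 17.5%). The most luminal calls came in males at 1 µg/kg/day, where Sox10 did not pass: 9 of 18 rose (50%, beside 3.63%). In these 3 comparisons 0 of the 18 fell. The mean of the luminal list per array ran from -0.36 to -0.12 in female controls and from 0.06 to 0.56 in females at 10 µg/kg/day. Over 21 basal and myoepithelial probe sets, the medians were 0.50, 0.62 and 0.15 in males at 0.1, 1 and 10 µg/kg/day. In females they were 0.05, 0.03 and 0.26. Of these 21, 6 rose and 1 fell in males at 1 µg/kg/day (33.3%, beside 3.63% of all probe sets). With luminal and basal epithelial means as covariates, the Sox10 difference at 10 µg/kg/day was 0.44 in females (adjusted p = 0.0166) and 0.26 in males (adjusted p = 0.062). The genes most like Sox10 over the 24 arrays were C14h4orf19 and Ermp1, each with a Pearson r of 0.97, and Tfap2c, a transcription factor of luminal epithelium, with 0.96.

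**Figure D2:**
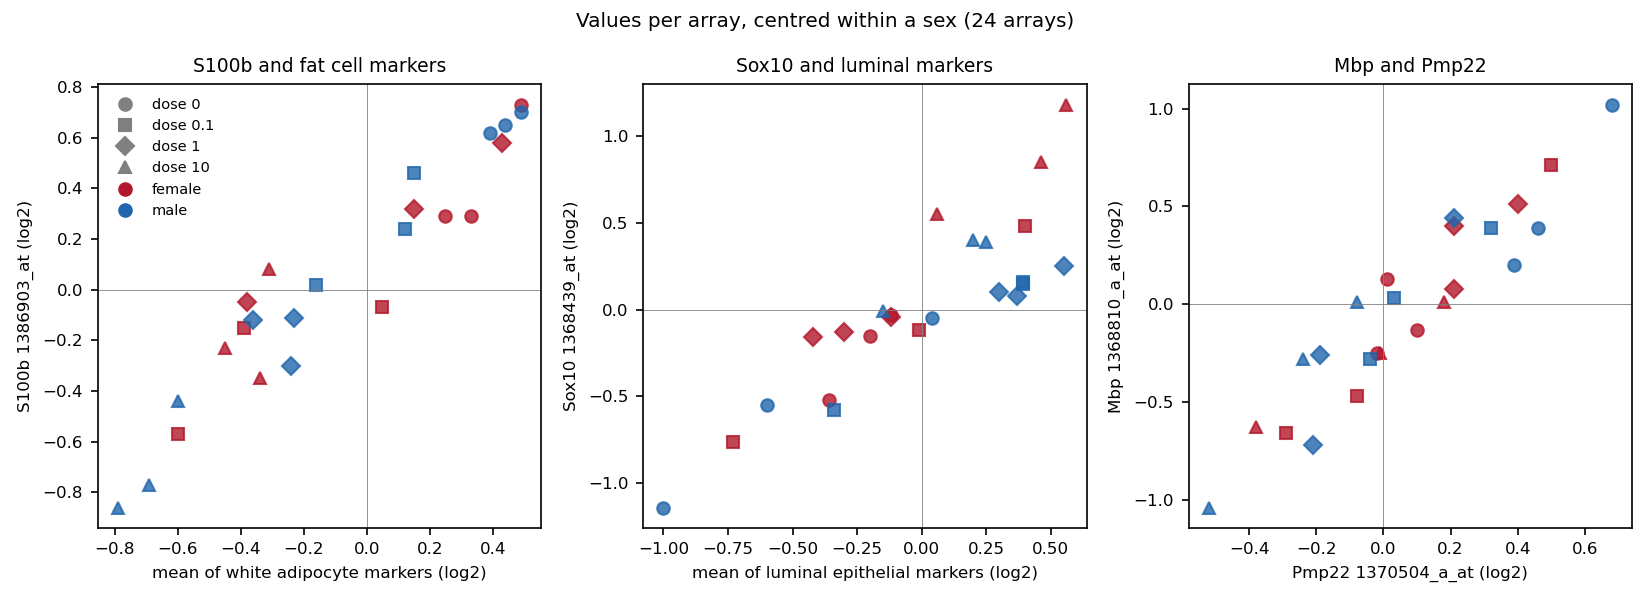
The value of S100b on each array is plotted against the mean of the white adipocyte markers, and that of Sox10 against the mean of the luminal markers, with colour for sex and marker shape for dose, on the centred log2 scale, and the last panel sets Mbp on 1368810_a_at against Pmp22 on 1370504_a_at. Among the male arrays, S100b has its lowest values where the fat cell mean is lowest, at 10 µg/kg/day. Among the female arrays, Sox10 has its highest values at 10 µg/kg/day.

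Mbp encodes myelin basic protein, which holds the inner faces of the myelin membrane together. Its 3 probe sets gave different pictures. On 1387341_a_at, which matches several transcripts of the gene, the male control arrays stood at 1.79, 0.69 and 1.20. The males at 0.1 µg/kg/day stood at 0.74, 0.52 and 0.41, those at 1 at -0.33, 0.85 and -0.18, and those at 10 at -0.27, -0.43 and -0.31. The arrays at 10 µg/kg/day lay below every male control and every male array at 0.1 µg/kg/day, while at 1 µg/kg/day replicate 8 stood at the height of the controls. The transcript fell by 1.56 ± 0.31 in males at 10 µg/kg/day, a fold of 2.96 with an adjusted p of 0.00213 (limma, interval -2.22 to -0.91). At 0.1 and 1 µg/kg/day the differences were -0.67 ± 0.31 (adjusted p = 0.413) and -1.11 ± 0.31 (adjusted p = 0.0531). Without male control replicate 2 the difference at 1 µg/kg/day was -1.38 (adjusted p = 0.0456), and without replicate 8 of that dose it was -1.48 (adjusted p = 0.0252), so both brought it past the threshold.

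The second multi-transcript probe set of Mbp, 1368810_a_at, leaned the same way with a wider spread. Its male controls stood at 1.02, 0.20 and 0.39 and its males at 10 µg/kg/day at 0.01, -1.04 and -0.28, without overlap. The difference was -0.97 ± 0.35, with an adjusted p of 0.0586 that missed the threshold. Without replicate 10 at 10 µg/kg/day it was -1.20 with an adjusted p of 0.0407. The last probe set, 1383479_at, showed no such difference in males. Its male controls stood at -0.19, 0.26 and -0.07 and its males at 10 µg/kg/day at -0.18, 0.14 and 0.00. The difference there was -0.01 ± 0.15, with an interval of -0.33 to 0.31.

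In females no probe set of Mbp passed. At 10 µg/kg/day the 3 probe sets differed from 0 by -0.21, -0.32 and -0.24 (1368810_a_at, 1383479_at and 1387341_a_at), with adjusted p of 0.87, 0.382 and 0.824. On 1387341_a_at the female arrays ran from -0.61, in replicate 11 at 10 µg/kg/day, to 0.87, in replicate 4 at 0.1 µg/kg/day. That array also had the widest spread over all probe sets.

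Pmp22 encodes a membrane protein of compact myelin whose gene dosage matters in inherited neuropathy. On 1370504_a_at, the male controls stood at 0.68, 0.39 and 0.46 and the males at 0.1 µg/kg/day at 0.32, 0.03 and -0.04. Those at 1 µg/kg/day stood at -0.19, 0.21 and -0.21 and those at 10 at -0.08, -0.52 and -0.24. All 9 treated male arrays lay below the lowest control. Pmp22 fell by 0.79 ± 0.18 at 10 µg/kg/day, a fold of 1.73 with an adjusted p of 0.00509 (limma, interval -1.17 to -0.42). The differences at 0.1 and 1 µg/kg/day were -0.41 (adjusted p = 0.392) and -0.57 ± 0.18 (adjusted p = 0.0793).

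The other probe set of Pmp22, 1370247_a_at, gave smaller differences. Its male controls stood at 0.42, 0.10 and 0.23 and its males at 10 µg/kg/day at 0.17, -0.51 and -0.09, and replicate 10 overlapped the controls. The difference was -0.39 ± 0.17 with an adjusted p of 0.125. Without that replicate it was -0.55, with an adjusted p of 0.0473. In females at 10 µg/kg/day the Pmp22 probe sets differed from 0 by -0.09 and -0.10, and neither passed at any dose.

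Of the 3 probe sets of Mbp, 1368810_a_at ran together with Pmp22 over the arrays. Among all genes, the one most like Mbp on 1368810_a_at was Sfrp5, a secreted inhibitor of Wnt signalling made by fat tissue, with a Pearson r of 0.97, followed by Pmp22 on 1370504_a_at with 0.94. The gene most like Pmp22 on 1370247_a_at was Mbp with 0.94, followed by Scn7a, a sodium channel found in Schwann cells, with 0.92. For Pmp22 on 1370504_a_at, the gene most like it was Gstm2, followed by Mbp on 1368810_a_at, each with 0.94, and Sapcd1 with 0.93. The genes most like Mbp on 1387341_a_at, its probe set that fell in males, were Slc6a8, the creatine transporter, and Atosb, each with 0.91. Abcc9 came next with 0.90, so Pmp22 was not among them. For 1383479_at the highest r was 0.89, with Txlng, and its 3 nearest genes held no other member.

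A measure of RNA quality differed between the male groups. The 3′ minus 5′ signal of beta-actin, which rises as RNA is more broken or less fully copied, stood at -0.56, -0.06 and -0.28 in male controls and at -0.02, 0.16 and 0.05 in males at 10 µg/kg/day. It stood at -0.36, -0.50 and -0.47 in males at 0.1 and at -0.24, -0.36 and -0.15 at 1 µg/kg/day, so it did not follow the dose order. The same signal of GAPDH stood at -0.14, -0.07 and -0.03 in male controls and at 0.01, -0.06 and -0.02 at 10 µg/kg/day. That of hexokinase stood at -0.29, -0.36 and -0.12 and at -0.12, 0.14 and 0.12. With beta-actin as a covariate, the differences in males at 10 µg/kg/day were -0.64 for Mbp on 1387341_a_at (adjusted p = 0.302), -0.40 for Pmp22 on 1370504_a_at (adjusted p = 0.372) and 0.33 for Sox10 (adjusted p = 0.705). S100b kept its call there. The covariate left 738 probe sets past the threshold, against 5419 without it. With the fat cell mean as a covariate, the calls of Mbp (-0.72, adjusted p = 0.962), Pmp22 (-0.13, adjusted p = 0.994) and Sox10 (0.52, adjusted p = 0.982) were lost too. The part of RNA quality in these results was not tested further.

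Ngfr encodes the p75 neurotrophin receptor, which immature and injured Schwann cells carry at high levels. Its probe set 1368148_at passed in 0 comparisons with limma. Among the female controls replicate 2 stood high, at 0.63, beside -0.19 and 0.06. The females at 10 µg/kg/day stood at -0.37, -0.25 and 0.14, a difference of -0.33 ± 0.18 with an adjusted p of 0.49. The male controls stood at -0.06, 0.09 and -0.25 and the males at 10 µg/kg/day at 0.14, 0.09 and 0.40. The male difference was 0.29 ± 0.18, with an interval of -0.10 to 0.67 and an adjusted p of 0.301. Its highest male group, at 10 µg/kg/day, lay above the group at 1 µg/kg/day (-0.03, -0.51 and -0.14) without overlap, but that step of 0.44 had an adjusted p of 0.433. No gene ran as closely with Ngfr as with the other members, and the highest Pearson r was 0.72, with Bmp2, a secreted growth factor.

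Counted by overlap, 5 of 8 probe sets in males at 10 µg/kg/day had no array in the range of the controls, beside 37.1% of all probe sets. At 1 µg/kg/day in males it was 4 of 8 beside 26.2%, and at 0.1 it was 2 of 8 beside 19.1%. In females at 0.1 and 1 µg/kg/day it was 2 of 8 at each dose, beside 11.5% and 8.8%.

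**Figure D3:**
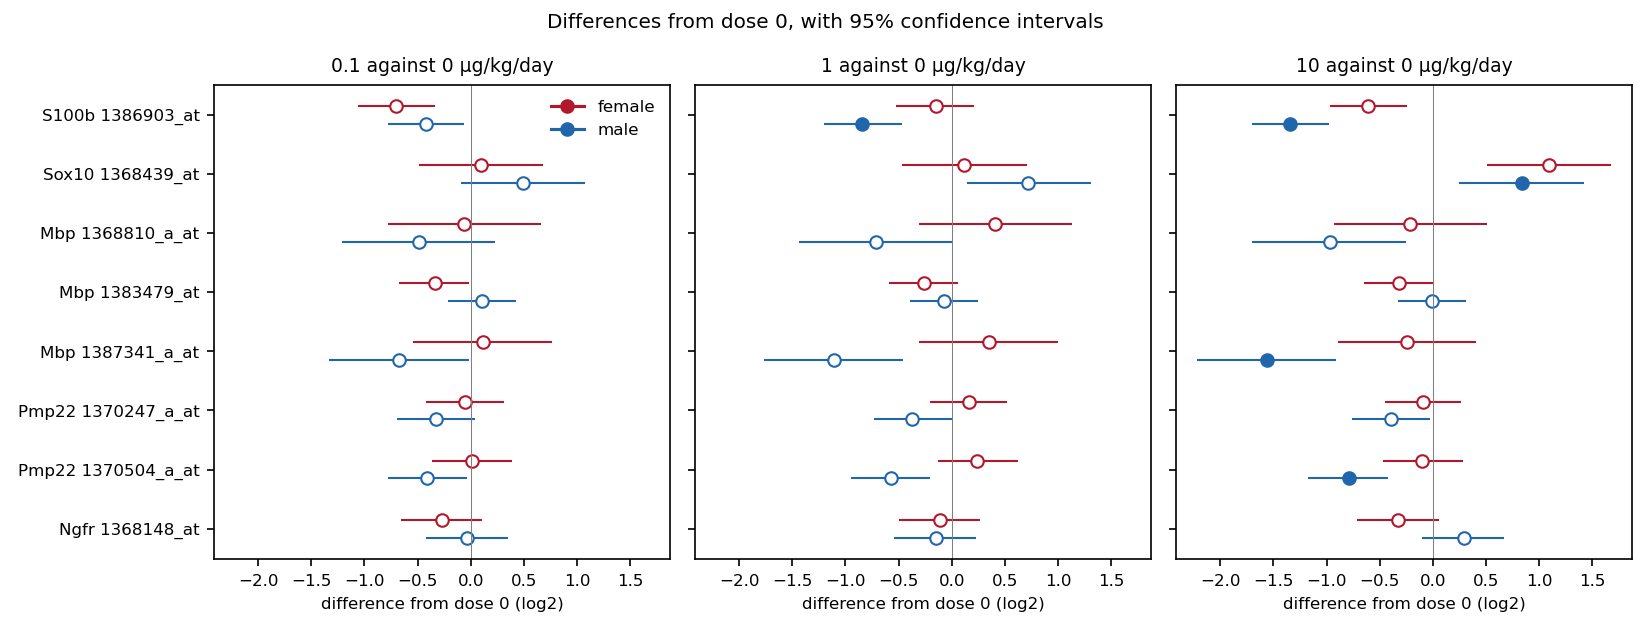
The log2 difference from 0 of each probe set is drawn with its 95% interval for the 3 doses, with 1 colour for each sex and filled points for an adjusted p under 0.05 (open otherwise). The filled points are S100b in males at 1 and 10 µg/kg/day and, in males at 10 µg/kg/day, Sox10 (0.84), Mbp on 1387341_a_at (-1.56) and Pmp22 on 1370504_a_at (-0.79).

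Whether a dose acted differently in the sexes was tested as the male difference from 0 minus the female one. At 10 µg/kg/day 0 of 8 passed with limma, against 1.28% of all probe sets, and 4 had an unadjusted p under 0.05, where 19% of all did. At 1 µg/kg/day it was 0 of 8 against 0.0483%, with 5 at an unadjusted p under 0.05, beside 9.85% of all. At 0.1 µg/kg/day it was 0 of 8 against 0%, with 0 unadjusted, beside 7.3% of all. At 10 µg/kg/day S100b had a value of -0.74 ± 0.24 (interval -1.25 to -0.23, adjusted p = 0.125) and Mbp on 1387341_a_at a value of -1.32 ± 0.44 (adjusted p = 0.128). Pmp22 on 1370504_a_at had -0.70 ± 0.25 (adjusted p = 0.157) and Ngfr 0.61 ± 0.26 (adjusted p = 0.215). Sox10 had -0.25 ± 0.40, with an interval of -1.08 to 0.57. The falls in males are thus not shown to differ from the female values at the threshold used. With the replicate number as a block, Pmp22 on 1370504_a_at passed, at -0.70 with an adjusted p of 0.0431.

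Other Schwann cell and myelin genes were counted from a list of 30 genes that left out the 5 members. Of these 25 were on the array, with 38 probe sets. In males at 10 µg/kg/day 3 rose and 2 fell, with a median difference of -0.13. In males at 1 µg/kg/day 3 rose and 0 fell (7.89%, beside 3.63% of all probe sets). In females at 10 µg/kg/day 0 passed, beside 1.86% of all, with a median of 0.07. The share past the threshold in males at 10 µg/kg/day was 13.2%, below the 17.5% of all. The list's mean per array stayed between -0.17 and 0.21 in all 24 arrays. Mag, an adhesion protein between glia and axon, did not pass in females (0.34) or males (-0.33) at 10 µg/kg/day, nor did Erbb3, the neuregulin receptor of Schwann cells, at 0.36 and 0.14.

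The probe sets that rose belonged to Egr2, a transcription factor that switches on myelination and that many cells also induce early after a stimulus, and to Gpm6b, a membrane glycoprotein found in glia and many other tissues. On 1387306_a_at, Egr2 stood at -1.53, -1.52 and -1.04 in male controls, at 0.66, 0.31 and 0.49 at 1 µg/kg/day and at 1.20, 0.98 and 1.04 at 10 µg/kg/day. It rose by 1.85 ± 0.22 at 1 µg/kg/day (adjusted p = 0.000163) and by 2.44 ± 0.22 at 10 (adjusted p = 1.8e-06, limma), and its second probe set did not pass. In females it stood at -0.09, 0.09 and -0.20 in controls and at 0.02, -0.09 and 0.13 at 10 µg/kg/day. The male groups at 1 and 10 µg/kg/day thus lay far above their controls, while the female groups overlapped. Both probe sets of Gpm6b rose in males at 10 µg/kg/day, by 1.35 ± 0.12 and 1.48 ± 0.14. With the fat cell mean as a covariate Egr2 had an adjusted p of 0.0639 at 1 and 0.0724 at 10 µg/kg/day, and Gpm6b on 1381996_at 0.0724 at 10.

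The 2 that fell were Dhh, a hedgehog ligand that Schwann cells send to the nerve sheath, by 0.49 ± 0.16 (adjusted p = 0.043), and Sox2, a factor of immature Schwann cells, on 1381874_at by 0.31 ± 0.11 (adjusted p = 0.0457). The other 3 probe sets of Sox2 did not pass, with differences of -0.13, -0.19 and -0.11 (adjusted p of 0.341, 0.329 and 0.524). Both calls lay near the threshold. Sox2 lost its call without any 1 of the 6 arrays compared (adjusted p from 0.0608 to 0.149). Dhh lost it without male control replicate 1, 2 or 3 or without replicate 11 or 12 at 10 µg/kg/day, with an adjusted p up to 0.182.

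Genes of the axon itself were counted from 18 genes with 24 probe sets. In males at 10 µg/kg/day 1 rose and 1 fell, which is 8.33% and below the 17.5% of all probe sets. Among females at that dose 0 passed, beside 1.86% of all, and the medians were -0.02 in males and 0.02 in females. Gap43, a growth cone protein that is also found in non-myelinating Schwann cells, fell on 1367930_at by 1.38 ± 0.30 in males at 10 µg/kg/day (adjusted p = 0.00394), and its second probe set did not pass. Its arrays stood at 0.92, 0.62 and 1.23 in male controls and at -0.01, -0.97 and -0.38 at 10 µg/kg/day, without overlap. That call was lost with muscle and hepatocyte means (adjusted p = 0.13), with the fat cell mean (0.962), with epithelial means (0.0589) and with beta-actin (0.239). Uchl1, a deubiquitinase abundant in neurons, rose by 0.47 ± 0.09 (adjusted p = 0.00214), and lost its call with the fat cell mean (0.829) and with beta-actin (0.0546).

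Neurotrophin signalling, the system in which Ngfr acts, was counted over 29 probe sets of 13 genes. In males at 10 µg/kg/day 7 rose and 5 fell, which is 41.4% beside 17.5% of all, with a median of 0.00. In females at 10 µg/kg/day 1 rose and 0 fell (3.45%, beside 1.86% of all). That 1 was Bex1, an adaptor that binds the p75 receptor, which rose by 1.34 ± 0.23 in females at 10 µg/kg/day (adjusted p = 0.00476) and by 1.40 ± 0.23 in males (adjusted p = 0.000382). Bex1 stood at -0.69, -0.75 and -0.50 in female controls and at 1.09, 0.76 and 0.23 in females at 10 µg/kg/day, without overlap. Among the others in males at 10 µg/kg/day, Nradd, which resembles the p75 receptor, rose on 1377080_at by 0.78 ± 0.11 (adjusted p = 8.75e-05). Sort1, the co-receptor sortilin, fell on 1371004_at by 0.78 ± 0.12 (adjusted p = 0.000313) and on 1372728_at by 0.76 ± 0.13. With the fat cell mean as a covariate, Bex1, Nradd and Sort1 did not pass. The female call of Bex1 was also lost in the fit of the 2 groups alone (adjusted p = 0.0629) and without the arrays with hepatocyte transcripts (0.059). Of 15 probe sets for 6 genes of neuregulin signalling, which drives Schwann cell growth and myelination, 0 passed in males at 10 µg/kg/day, beside 17.5% of all.

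Relatives of the members by family were counted too. S100a1, a calcium-binding protein of heart and skeletal muscle, fell by 0.65 ± 0.12 in males at 10 µg/kg/day (adjusted p = 0.0016), from 0.54, 0.27 and 0.21 in controls to -0.27, -0.31 and -0.35. Of the 12 probe sets of the S100 family without S100b, 1 rose and 1 fell there, a share of 16.7% that is close to the 17.5% of all probe sets. Among 10 probe sets of the PMP22 and EMP family without Pmp22, 2 rose and 1 fell (30%). The fall was Emp1, an epithelial membrane protein, by 1.30 ± 0.28 (adjusted p = 0.00392). The calls of S100a1 and Emp1 at this dose held without any single array, with an adjusted p up to 0.015 and 0.0315, and were lost with the fat cell mean (0.964 and 0.95) and with beta-actin (0.173 and 0.334). In males at 1 µg/kg/day, 3 of the 10 PMP22 and EMP family probe sets rose and 0 fell (30%, beside 3.63% of all). Of the 12 S100 family probe sets 1 fell there (8.33%). In females at 10 µg/kg/day 1 of the 10 and 1 of the 12 fell (10% and 8.33%, beside 1.86% of all). No SoxE relative of Sox10 had a probe set of its own on the array.

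**Figure D4:**
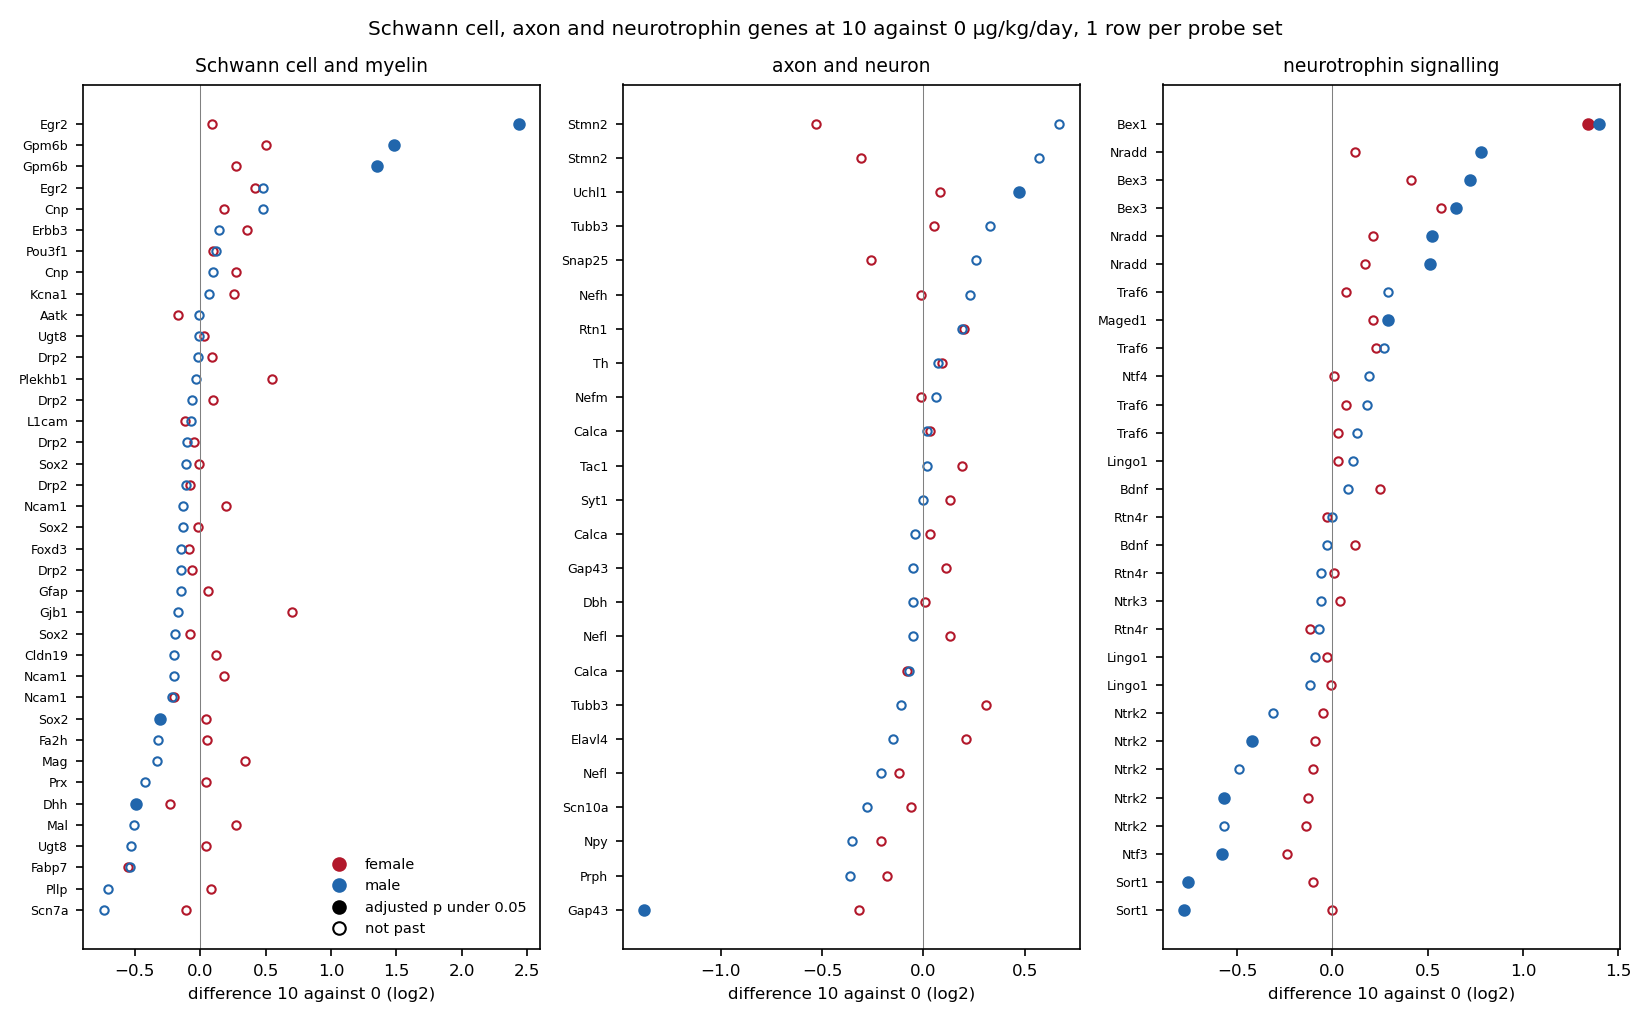
Each row is 1 probe set of the Schwann cell and myelin, axon and neuron, or neurotrophin signalling list, with its log2 difference from 0 at 10 µg/kg/day in females and in males as points on the horizontal axis and filled points for an adjusted p under 0.05. Among called probe sets Egr2 stands farthest out in males, at 2.44.

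Markers of other tissues also differed between the arrays. The mean of hepatocyte genes exceeded 1 on 4 arrays, among them male control replicates 2 and 3 (1.35 and 2.41) and female control replicate 1 (2.30). Without these 4 arrays the male controls come down to replicate 1 alone, whose spread is then borrowed from the remaining groups and which has the lowest beta-actin value of the male arrays, -0.56. Against that 1 array S100b differed by -0.82 in males at 1 µg/kg/day, with an adjusted p of 0.116, and this setting says nothing on how stable the male calls are. Skeletal muscle genes had median differences from -1.46 to 1.95 over the 6 comparisons. With muscle and hepatocyte means as covariates, Pmp22 on 1370504_a_at had an adjusted p of 0.0528 and Sox10 of 0.0937 in males at 10 µg/kg/day. Lymphocyte genes, of interest beside the Mbp locus, had a median difference of 1.52 in males at 10 µg/kg/day, with 0 of 28 past the threshold, and of -0.70 in females.

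Marker lists of skin, stroma and basal epithelium also held calls in the group that held most member calls, males at 10 µg/kg/day. Of 18 probe sets of 13 keratinocyte and hair follicle genes, 11 rose and 0 fell (61.1%, beside 17.5% of all probe sets), with a median difference of 1.10, and their mean per array ran from -0.27 to -0.21 in male controls and from 0.75 to 1.86 at that dose. Of 17 probe sets of 12 fibroblast genes, 8 fell and 2 rose (58.8%), with a median of -0.18 and array means from 0.03 to 0.15 in male controls and from -0.06 to -0.01 at that dose. Of 21 probe sets of 16 basal and myoepithelial genes, 7 rose and 1 fell (38.1%), with a median of 0.15 and array means from -0.53 to 0.03 and from 0.09 to 0.29. These lists had 0, 0 and 1 probe sets past the threshold in females at 10 µg/kg/day. The part of these cell types in the differences of Pmp22, Mbp, S100b and Sox10 was not tested, except for the epithelial means used as covariates.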

How the data were processed

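The authors deposited signed log values, taken here as log2, for 31099 probe sets on 24 arrays, and GCOS is named, without a role, per the submitters' processing notes. Not given in the sources used here: summarization, normalization and log base. Folds assume log2. Centring within each sex was read from the values: the pair nearest 0, above and below, had the same size (within 2e-06) in 45.3% of probe sets over females and 41.9% over males. It is therefore not shown for every probe set. After 57 control probe sets were left out, 31042 were tested, of which 20826 had 1 gene symbol.

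Limma 3.58.1 under R 4.3.3 fitted 8 group means by lmFit and eBayes (16 residual degrees of freedom), with Benjamini-Hochberg adjustment over all probe sets and a threshold of 0.05. The fit was tested on simulated data. Members and lists were chosen with earlier results of these data known. Lists were counted over all their probe sets. Named were all members, up to 4 genes of a list with the smallest p past the threshold in a comparison (up to 2 where none passed), and, by name, Mag, Erbb3, Sox9, S100a1 and Emp2; 3 further genes named in that rule are not reported here. For likeness, the 3 genes with the highest Pearson r over 24 arrays were taken.

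Replicate numbers recur in both sexes at a dose. Deviations of same-numbered arrays correlated from -0.48 to 0.59, over 0.1 in 5 of 12 pairs, so the numbers were not treated as pairing. Array medians lay between -0.0175 and 0.0134 and SDs between 0.186 and 0.485, and 0 pairs of arrays were identical. Centred values keep no level relative to background, so a probe set near background cannot be told from one well above it. Precision is limited by the number of arrays. Alternatives were array weights, quantile normalization, other sets of arrays or probe sets, and covariates for other cell types or RNA quality.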

Additional observations from a re-analysis of the deposited data

Results flagged for a closer look

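Among the nerve, neurotrophin and family genes, 7 differences between the sexes passed the interaction test (male difference from 0 minus female difference from 0, limma, adjusted over all probe sets). None of these 7 was a member. At 10 µg/kg/day 3 of 38 Schwann cell and myelin probe sets passed (7.89%), beside 1.28% of all probe sets. The share was 6.9% of 29 for neurotrophin signalling and 10% of 10 for the PMP22 and EMP family. The axon and neuron, neuregulin signalling and S100 family lists had 0 of 24, 15 and 12. At 1 µg/kg/day 1 of 38 Schwann cell and myelin probe sets passed (2.63%), beside 0.0483% of all, and 0 in the other lists. The female and male control arrays are each shared between doses.

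Egr2 on 1387306_a_at had an interaction of 2.06 ± 0.30 at 1 µg/kg/day (adjusted p = 0.0237) and of 2.35 ± 0.30 at 10 µg/kg/day (adjusted p = 0.000972). On that probe set its rise in males went with no like difference in females. The second probe set of Egr2, 1398266_a_at, did not show this. It differed from 0 by 0.42 in females and by 0.48 in males at 10 µg/kg/day, and its interaction did not pass. Gpm6b had 1.08 ± 0.17 on 1381996_at (adjusted p = 0.00683) and 0.97 ± 0.20 on 1370389_at (adjusted p = 0.026) at 10 µg/kg/day. Nradd on 1377080_at had 0.65 ± 0.15 at 10 µg/kg/day (adjusted p = 0.038). Sort1 on 1371004_at had -0.79 ± 0.17 at 10 µg/kg/day (adjusted p = 0.0315), from a difference of 0.00 in females and -0.78 in males. The second probe set of Sort1, 1372728_at, did not pass, with -0.10 in females and -0.76 in males. Emp2 on 1373617_at had 0.94 ± 0.21 at 10 µg/kg/day (adjusted p = 0.0299), from -0.63 in females and 0.31 in males. The other probe sets of Nradd and Emp2 did not pass this test.

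Egr2 at 10 µg/kg/day kept its call in every alternative run, of which the one without hepatocyte arrays left 1 male control, and without each single array, and Gpm6b on 1381996_at kept it without each single array. The others were lost without 1 or more single arrays. Without male control replicate 1, for example, the adjusted p was 0.0894 for Egr2 at 1 µg/kg/day, 0.0619 for Gpm6b on 1370389_at, 0.0976 for Nradd, 0.0637 for Sort1 and 0.0772 for Emp2.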

How the results depend on the processing

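Centred values, 3 arrays a group and an unstated log base limit all results. No member difference reversed among those past the threshold, and the cause of the changes below was not tested. Of 57 named values of list genes past the threshold, 31 kept their call without any single array and 2 under every other alternative. With the white adipocyte covariate, Dhh and Sort1 on 1372728_at in males at 10 µg/kg/day both turned to 0.03.

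Leaving out 1 array at a time gave these ranges of differences: S100b in males at 1 µg/kg/day, -0.87 to -0.77; Mbp on 1387341_a_at at that dose, -1.48 to -0.83; and in males at 10 µg/kg/day, Mbp on 1368810_a_at -1.20 to -0.67, Pmp22 on 1370247_a_at -0.55 to -0.21 and Sox10 0.56 to 1.10. Sox10 in females at 10 µg/kg/day ranged from 0.93 to 1.25. The count of probe sets past the threshold ranged from 0 to 204 in females at 0.1, 158 to 552 in females at 10, 0 to 1 in males at 0.1, 165 to 1205 in males at 1 and 2685 to 5239 in males at 10 µg/kg/day, and for the interactions from 0 to 51 at 1 and 65 to 575 at 10.

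The counts as reported were 0 in females at 0.1, 577 in females at 10, 0 in males at 0.1, 1127 in males at 1, 5419 in males at 10, and 0, 15 and 397 for the interactions at 0.1, 1 and 10. Without the arrays with hepatocyte transcripts only 1 male control is left, so its male values rest on that array. In females at 0.1 they were 1738 with array weights, 12 with quantile normalization, 1 without the arrays with hepatocyte transcripts, 4 with muscle and hepatocyte covariates, 162 without the 2 arrays of widest spread and 4 with muscle, hepatocyte and lymphocyte covariates. These last 2 alternatives were chosen after seeing the data. In females at 10, in that order, they were 1218, 908, 103, unmoved, 963 and 918, with 127 on the groups compared alone, 6 with the fat cell covariate and 229 with epithelial covariates. In males at 0.1 they were 180 with weights, 20 without hepatocyte arrays, 1204 with beta-actin and 13 with the 3 tissue covariates. In males at 1 they were 2375 with weights, 401 without hepatocyte arrays, 8 with the fat cell covariate, 23 with epithelial covariates and 468 without the widest arrays. In males at 10 they were 8955 with weights, 3480 with quantile normalization, 2421 with muscle and hepatocyte, 9 with fat cell, 2873 with epithelial, 738 with beta-actin and 2788 with the 3 tissue covariates. The interaction at 0.1 gave 4, 11 and 24 with weights, 2 and 3 tissue covariates. At 1 it gave 0 on the groups compared, with the fat cell, epithelial or beta-actin covariates, 83 with weights, 6 over probe sets with 1 gene and 5 with muscle and hepatocyte. At 10 it gave 3491 with weights, 152 with quantile normalization, 38 with fat cell, 1147 with epithelial and 23 with beta-actin.

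With the replicate block, the interaction count at 1 was 27 and Pmp22 on 1370504_a_at passed at 10 with -0.70. With the number as a random replicate block (correlation 0.106), Sox10 in females at 10 passed with 1.09. The block changed no other member call.

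Sox10 in females at 10 also passed with weights (1.05), quantile normalization (1.22), probe sets with 1 gene (1.09), muscle and hepatocyte (1.44), epithelial (0.44), beta-actin (1.19), without the widest arrays (1.09) and with the 3 tissue covariates (1.43). In males at 10 it lost its call on the groups compared (0.84), with quantile normalization (0.66), muscle and hepatocyte (0.77), fat cell (0.52), epithelial (0.26), beta-actin (0.33), without the widest arrays (0.56) and with 3 tissues (0.78). S100b lost its call in males at 10 with fat cell (-0.38) and at 1 without hepatocyte arrays (-0.82), with fat cell (-0.22) and epithelial (-0.78). It passed with weights in females at 0.1 (-0.58) and in the interaction at 10 (-0.92). Mbp on 1387341_a_at lost its call in males at 10 with fat cell (-0.72) and beta-actin (-0.64). It passed in males at 1 with weights (-1.08), 1 gene (-1.11), muscle and hepatocyte (-1.15), beta-actin (-0.99) and 3 tissues (-1.07), at 0.1 with beta-actin (-1.05), and in the interaction at 10 with weights (-1.27) and epithelial (-1.54). Pmp22 on 1370504_a_at lost its call in males at 10 with muscle and hepatocyte (-0.65), fat cell (-0.13), epithelial (-0.54) and beta-actin (-0.40). It passed in males at 1 with weights (-0.56) and 3 tissues (-0.50), and in the interaction at 10 with weights (-0.78). Mbp on 1368810_a_at (-0.93) and Pmp22 on 1370247_a_at (-0.42) passed in males at 10 with weights.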
